A study of Mus musculus with 6 samples.

Results

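The 9 genes described here are regulators of p53 signalling and of the mitochondrial pathway of apoptosis: *Trp53*, *Mdm2*, *Ccng1*, *Bax*, *Bbc3*, *Pmaip1*, *Bcl2*, *Bcl2l1* and *Mcl1*. They were chosen by name, as the rows of the count table that carry these gene symbols, and make up 9 of the 54532 genes in the table. All 9 passed the filter on low counts and were among the 17505 genes tested. RNA of whole mouse cerebella at postnatal day 1 (P1) was sequenced in 6 libraries. The 3 controls were Tox3f/f littermates, in which *Tox3* is floxed and no Cre is labelled. The 3 mutants were Nestin-cre;Tox3f/f animals, in which a Nestin promoter drives Cre in the nervous system, and the labels describe them as conditional knockouts. Both groups thus carried the floxed allele and only the mutants carried Cre, so effects of the transgene and of the deletion cannot be told apart. The comparison asks which of these genes differ between mutant and control cerebella in which granule lineage transcripts are fewer.

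p53, encoded by *Trp53*, is a transcription factor that activates genes for cell cycle arrest, DNA repair and cell death, and it is controlled mainly at the level of protein stability by the ubiquitin ligase Mdm2, itself a p53 target. In the mitochondrial pathway, BH3-only proteins such as Puma (*Bbc3*) and Noxa (*Pmaip1*) bind the anti-apoptotic proteins Bcl-2, Bcl-xL (*Bcl2l1*) and Mcl-1, and the effectors Bax and Bak then permeabilize the outer mitochondrial membrane and release cytochrome c to activate caspases. In the newborn cerebellum, granule neuron progenitors (GNPs) divide in the external granule layer under Sonic hedgehog, and this lineage is known to be sensitive to p53-dependent death after DNA damage.

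The upstream sequences of the genes were read because p53 binds its targets through pairs of a short half-site. RefSeq windows of the 250 bases before an annotated start, on GRCm38.p6, were given for 8 of the 9 genes and not for *Pmaip1*. An exact match to the p53 half-site consensus, which is its own reverse complement, was present in 1 window each of *Trp53*, *Mdm2*, *Ccng1* and *Bax*, and the 4 sequences are shown 5′ to 3′ with the match in capitals. They lie at chr11:69580109-69580358 on the plus strand for *Trp53*, and on the minus strand at chr10:117710759-117711008 for *Mdm2*, at chr11:40755287-40755536 for *Ccng1* and at chr7:45466899-45467148 for *Bax*.
Trp53: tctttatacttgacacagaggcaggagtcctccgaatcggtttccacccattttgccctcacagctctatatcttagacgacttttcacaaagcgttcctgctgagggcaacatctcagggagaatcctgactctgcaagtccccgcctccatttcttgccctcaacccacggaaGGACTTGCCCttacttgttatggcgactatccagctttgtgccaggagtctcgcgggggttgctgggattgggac
Mdm2: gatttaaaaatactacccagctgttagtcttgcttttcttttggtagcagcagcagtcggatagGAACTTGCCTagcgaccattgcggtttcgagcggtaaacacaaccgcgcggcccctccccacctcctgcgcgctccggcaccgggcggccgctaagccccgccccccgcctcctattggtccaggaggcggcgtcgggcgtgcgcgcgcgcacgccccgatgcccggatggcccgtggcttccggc
Ccng1: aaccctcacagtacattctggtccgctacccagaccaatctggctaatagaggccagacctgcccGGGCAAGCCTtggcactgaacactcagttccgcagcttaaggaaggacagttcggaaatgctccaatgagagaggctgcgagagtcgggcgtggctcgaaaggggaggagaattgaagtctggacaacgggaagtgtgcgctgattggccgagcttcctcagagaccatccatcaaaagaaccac
Bax: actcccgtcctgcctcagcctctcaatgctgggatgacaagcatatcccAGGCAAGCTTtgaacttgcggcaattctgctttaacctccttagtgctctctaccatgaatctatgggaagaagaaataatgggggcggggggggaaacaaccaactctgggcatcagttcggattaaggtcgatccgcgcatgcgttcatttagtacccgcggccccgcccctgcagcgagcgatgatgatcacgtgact

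No match was found in the windows of *Bbc3*, *Bcl2*, *Bcl2l1* and *Mcl1*. The match occurred in 7.13% of all 32841 windows and in at least 1 window of 8.2% of 27018 genes. It was present in 37.5% of the 24 genes with a window among the other p53 targets of a list written by hand, a list of genes known for p53 binding. Of those 9 other targets with a match, 2 (*Cdkn1a* and *Ckap2*) were lower in the mutants at an adjusted p under 0.01 and 7 did not pass. A match is a description of the letters in a window and not a measured binding site.

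Total counts on genes lay between 15391854 and 17178478 per library, and 99.8% of them fell on tested genes. Levels are given as CPM, the count divided by the effective library size after TMM scaling and put on a common total, with the standard deviation (SD) over 3 libraries where a mean is given. Fold changes are log2 values of mutant minus control from edgeR's quasi-likelihood test, with standard errors (SE), and p-values were adjusted by Benjamini-Hochberg over all tested genes. A gene is said to have risen or fallen at an adjusted p under 0.01. The targeted gene *Tox3* was counted at 64.3, 63.0 and 64.4 CPM in controls and 55.3, 63.2 and 59.2 CPM in mutants (log2 fold change -0.11, adjusted p = 0.252), so that its gene total does not check the labels. *Atoh1*, the transcription factor that specifies GNPs, fell from 31.8 ± 0.873 to 0.362 ± 0.186 CPM (log2 fold change -6.40). Libraries of both sexes were present in both groups, with Y-chromosome transcripts in control 1, mutant 1 and mutant 3. The labels do not say in so many words that each library is a separate animal, so p-values measure the spread between these libraries, and an exact permutation test of 3 against 3 cannot give a two-sided p below 0.1.

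*Trp53* and *Pmaip1* fell in the mutants, and none of the other 7 genes passed the test in either direction. The share of all tested genes at an adjusted p under 0.01 was 7.24% lower and 6.55% higher, against 2 lower and 0 higher among the 9. At an unadjusted p under 0.05, edgeR gave 2 lower and 3 higher (*Ccng1*, *Bbc3* and *Bcl2*), and DESeq2 gave 2 and 0 at the adjusted p. Both genes also passed the fold threshold of 0.5 log2 used with that p, as did 3.63% of tested genes lower and 3.03% higher. Counted by overlap alone, all 3 mutants lay below all 3 controls for 5 of the 9 genes and above them for 3, against 20.1% and 20.4% of tested genes. The median log2 fold change of the 9 genes was -0.09, and that of all tested genes was -0.01. Because the RNA is from whole tissue, fewer cells of a type and less RNA per cell cannot be told apart in any of these values.

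**Figure D1:**
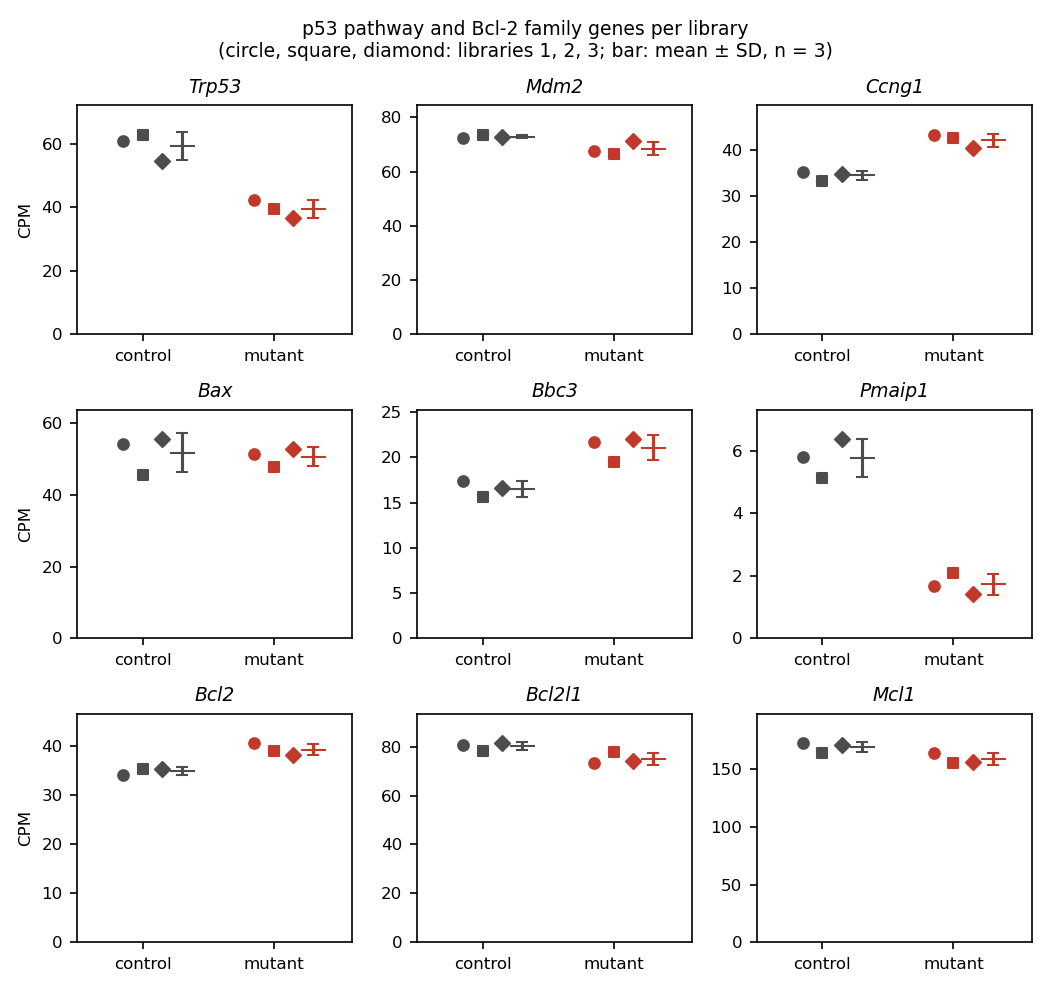
CPM (y axis, from 0, scaled per gene) of the 9 genes in the 3 control and 3 mutant libraries, with symbols for library 1, 2 and 3 and a bar for the mean ± SD. The 2 groups lie farthest apart for *Trp53* (39.5 against 59.3 CPM) and *Pmaip1* (1.73 against 5.76 CPM), and overlap for *Bax*.

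*Trp53* (ENSMUSG00000059552), the gene for p53, spans 69580359 to 69591873 of chromosome 11 on the plus strand (GRCm38, as for all genes here). Its level was 60.9, 62.7 and 54.5 CPM in controls 1, 2 and 3 and 42.3, 39.5 and 36.7 CPM in mutants 1, 2 and 3. Every mutant lay below every control, and the gap between the groups was wider than the range within either. The transcript fell by 0.59 on the log2 scale (SE 0.0815, adjusted p = 7.66e-04). It fell under each of the 18 alternatives run, with log2 fold changes from -0.645 to -0.535. Control 1 and mutants 1 and 3, the libraries with Y-chromosome transcripts, gave 60.9 against 42.3 and 36.7 CPM, and the other libraries gave 62.7 and 54.5 against 39.5 CPM. A fit that took the summed level of Y-linked transcripts as a covariate gave a log2 fold change of -0.595. The processed pseudogene *Trp53-ps* held 4 to 7 counts per library, beside 590 to 963 for *Trp53*. *Wrap53*, the neighbour on the opposite strand whose transcripts start beside *Trp53*, had a log2 fold change of -0.38 and an adjusted p of 0.0308, which did not pass.

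*Mdm2*, on the minus strand of chromosome 10 (117688875 to 117710758), encodes the ligase that marks p53 for degradation. It was counted at 72.3, 73.4 and 72.7 CPM in controls and at 67.6, 66.5 and 71.2 CPM in mutants. The mutants lay just below the controls without overlap, and the log2 fold change of -0.09 (95% interval -0.21 to 0.03, adjusted p = 0.266) did not pass. Per length, *Mdm2* and *Trp53* were at about one level in controls, at 14.2 ± 0.112 and 14.5 ± 1.06 FPKM (fragments per kilobase of gene length, scaled to library depth), with overlapping libraries. In mutants *Mdm2* stood at 12.9 to 14.0 FPKM and *Trp53* at 9.06 to 10.4 FPKM, with no overlap. The ratio of *Mdm2* to *Trp53* FPKM was 0.946, 0.931 and 1.06 in controls and 1.27, 1.34 and 1.54 in mutants.

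Of the 22 tested genes of the p53 family and its regulators, 4 fell and 0 rose, against 7.24% and 6.55% of all tested genes. The list's median log2 fold change was -0.17. At an unadjusted p under 0.05 edgeR gave 9 lower and 1 higher, and DESeq2 gave 4 and 0 at the adjusted p. Those that fell were *Trp53* itself, *Rpl5*, *Usp7* and *Chek2*. *Rpl5*, a ribosomal protein that binds Mdm2 when ribosome assembly is disturbed, was at 423, 403 and 413 CPM in controls and 340, 344 and 332 CPM in mutants and fell (log2 fold change -0.29, adjusted p = 0.00130). *Usp7*, a deubiquitinase of Mdm2 and p53, fell from 287 ± 4.80 to 238 ± 5.10 CPM (log2 fold change -0.27, adjusted p = 0.00152), a call that was lost without mutant 1 or without mutant 3. *Chek2*, a kinase of the DNA damage checkpoint, fell from 11.6 ± 1.10 to 7.81 ± 0.286 CPM (log2 fold change -0.57, adjusted p = 0.00747). This call was lost in 12 of 18 alternatives, the omission of any single library included. *Mdm4*, the partner of Mdm2 that holds p53 inactive, was at 156, 191 and 173 CPM in controls and 123, 161 and 125 CPM in mutants. Its groups overlapped, and the log2 fold change of -0.35 had an adjusted p of 0.0369, which did not pass, although it passed in 5 of 18 alternatives, among them the fit without mutant 2 (adjusted p = 0.00185). Among libraries with Y-chromosome transcripts *Mdm4* was at 156 against 123 and 125 CPM, and among the others at 191 and 173 against 161 CPM. Without mutant 1 or without mutant 3, 2 genes of the list fell.

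*Ccng1* encodes cyclin G1, a direct p53 target that recruits a phosphatase to Mdm2, and lies on the minus strand of chromosome 11 (40748552 to 40755311). Its level was 35.2, 33.4 and 34.9 CPM in controls and 43.2, 42.7 and 40.4 CPM in mutants. All mutants lay above all controls. The log2 fold change of 0.29 (SE 0.0710, adjusted p = 0.0149) did not pass the threshold, and it passed in 5 of 18 alternatives.

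Of the 35 tested p53 targets, 7 fell and 1 rose, against 7.24% and 6.55% of all tested genes. The list's median log2 fold change was -0.15. At an unadjusted p under 0.05 edgeR gave 13 lower and 10 higher. By overlap alone, the mutants lay below the controls for 15 of these targets and above them for 11. Those shares were 20.1% and 20.4% over all tested genes. Without the 5 targets that are among the 9 genes, 6 of 30 fell and 1 rose, and the median was -0.16. The members that moved were a mixed group. *Pidd1*, the scaffold that activates caspase-2, was at 26.3, 27.3 and 28.0 CPM in controls and 17.4, 15.4 and 16.1 CPM in mutants and fell (log2 fold change -0.74, adjusted p = 2.53e-04). *Psrc1* and *Ckap2*, which encode proteins of the mitotic spindle, fell by 0.84 and 0.48 on the log2 scale, and lost the call in 1 and 2 of 18 alternatives. *Cdkn1a*, the gene for the cell cycle inhibitor p21, was counted at 84.8, 78.6 and 82.8 CPM in controls and at 70.4, 61.1 and 65.6 CPM in mutants. It fell without overlap (log2 fold change -0.32, adjusted p = 0.00601), a call that was lost in 9 of 18 alternatives. *Tigar* and *Plk3*, named after their values were seen, fell by 0.50 and 0.34 on the log2 scale, and lost the call in 6 and 11 alternatives. For *Plk3* these included the omission of any single library. The riser was *Sulf2*, an extracellular heparan sulfate sulfatase, from 83.0 ± 1.83 to 119 ± 9.27 CPM (log2 fold change 0.52, adjusted p = 3.91e-04). In *Perp* and *Phlda3* all mutants lay above all controls, at log2 fold changes of 0.60 and 0.51 (adjusted p = 0.011 and 0.0162). In *Eda2r* all mutants lay below all controls, at -0.67 (adjusted p = 0.0145). None of these genes, named after their values were seen, passed. Leaving out any single library left 4 or 5 targets that fell: 4 without control 1, control 2, control 3 or mutant 3. Without control 3, 2 targets rose.

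*Bax*, the pore-forming effector, lies on the minus strand of chromosome 7 (45461697 to 45466898). Controls gave 54.1, 45.4 and 55.4 CPM and mutants 51.2, 47.6 and 52.8 CPM. The mutants lay within the range of the controls. The log2 fold change was -0.03 (95% interval -0.22 to 0.16, adjusted p = 0.829), and its sign turned under upper-quartile scaling (0.006) and without control 1, control 3 or mutant 2 (0.004, 0.022 and 0.020). *Bak1*, the other main effector, stood at 31.5 ± 0.427 CPM in controls and 34.1 ± 3.54 CPM in mutants (log2 fold change 0.11, adjusted p = 0.399). *Bok*, a related protein, fell from 70.5 ± 5.57 to 54.9 ± 4.35 CPM (log2 fold change -0.36, adjusted p = 0.00908), and this call was lost in 13 of 18 alternatives, the omission of any single library included.

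Of 7 tested BH3-only genes, *Pmaip1* fell, *Hrk* rose and 5 did not pass. *Pmaip1* (ENSMUSG00000024521), the gene for Noxa, which binds Mcl-1, lies on the plus strand of chromosome 18 (66458604 to 66465550). Its level was 5.79, 5.14 and 6.36 CPM in controls and 1.67, 2.09 and 1.43 CPM in mutants, which are 89, 79 and 99 counts against 29, 32 and 23. The highest mutant was far below the lowest control. The transcript fell 3.33-fold, by 1.73 on the log2 scale (SE 0.211, 95% interval -2.20 to -1.26, adjusted p = 3.63e-04), and 0.348% of tested genes had a fold change as low or lower. Without each library in turn the log2 fold change was -1.88 to -1.62. On the log2(FPKM + 1) scale, which compresses low values, it was -0.937. Among libraries with Y-chromosome transcripts the values were 5.79 against 1.67 and 1.43 CPM, and among the others 5.14 and 6.36 against 2.09 CPM.

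*Bbc3*, the gene for Puma, which binds all the anti-apoptotic Bcl-2 proteins, lies on the plus strand of chromosome 7 (16308393 to 16318205). Controls gave 17.4, 15.6 and 16.6 CPM and mutants 21.7, 19.5 and 22.0 CPM. All mutants lay above all controls, in the opposite order to *Pmaip1*. The log2 fold change of 0.35 (SE 0.0919, 95% interval 0.15 to 0.56, adjusted p = 0.0197) did not pass. The ratio of *Bbc3* to *Pmaip1* FPKM was 3.75, 3.77 and 3.26 in controls and 16.2, 11.6 and 19.2 in mutants. *Hrk*, the BH3-only gene for Harakiri, which is known from neurons deprived of trophic factors, was at 27.4, 23.4 and 28.3 CPM in controls and at 46.8, 43.9 and 47.1 CPM in mutants. It rose without overlap, by a log2 fold change of 0.80 (SE 0.0885, adjusted p = 2.17e-04), and kept that call in all 18 alternatives. *Bcl2l11*, the gene for Bim, was at 43.0 ± 2.36 and 37.1 ± 1.89 CPM (log2 fold change -0.21, adjusted p = 0.0689). *Bmf*, *Bid* and *Bad*, named after their values were seen, had adjusted p-values of 0.0165, 0.836 and 0.302, on log2 fold changes of -0.48, 0.04 and 0.15.

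The anti-apoptotic genes differed little between the groups, and none passed. *Mcl1*, on the plus strand of chromosome 3 (95658788 to 95663176), was the most highly expressed of the 9, at 172, 164 and 171 CPM in controls and 164, 155 and 156 CPM in mutants. The mutants lay below the controls without overlap, although control 2 and mutant 1 both round to 164 CPM. The log2 fold change of *Mcl1* was -0.09 (SE 0.0468, adjusted p = 0.178). *Bcl2l1*, on the minus strand of chromosome 2 (152780668 to 152831728), was at 80.7, 78.3 and 81.3 CPM in controls and 73.4, 77.7 and 73.9 CPM in mutants. Here too the mutants lay below the controls without overlap. The log2 fold change of *Bcl2l1* was -0.10 (95% interval -0.21 to 0.02, adjusted p = 0.220). The long and short isoforms of this gene are not separated by a gene count. *Bcl2*, on the minus strand of chromosome 1 (106538178 to 106714274), was at 34.0, 35.3 and 35.3 CPM in controls and 40.5, 39.0 and 38.2 CPM in mutants. All mutants lay above all controls, with a log2 fold change of 0.17 (95% interval 0.01 to 0.33) and an adjusted p of 0.108. *Bcl2l2*, the gene for Bcl-w, gave a log2 fold change of -0.07 (adjusted p = 0.673), and 0.040 without control 3. Across the whole Bcl-2 family, 14 of 19 genes were tested. Of these, 2 fell (*Pmaip1* and *Bok*) and 1 rose (*Hrk*), against 7.24% and 6.55% of all tested genes. The other 11 did not pass, and the family's median was -0.05. Leaving out any single library left 1 gene that fell.

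**Figure D2:**
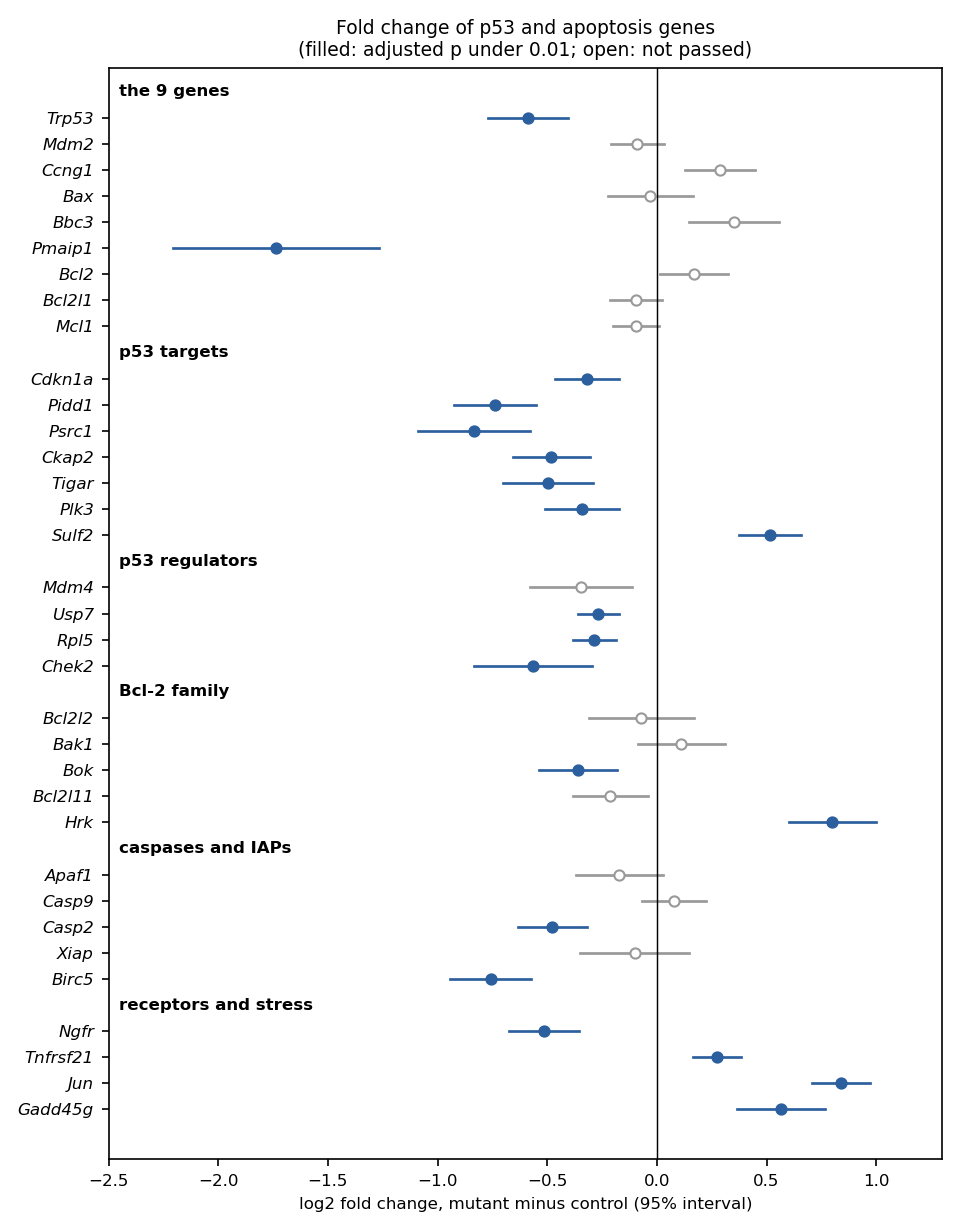
Log2 fold change, mutant minus control, of the 9 genes and of named genes of the pathway (points), with 95% intervals (lines). Filled points passed an adjusted p of 0.01. *Pmaip1* is the lowest at -1.73 and *Jun* the highest at 0.84, while the interval of *Bax* spans 0.

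Levels between genes were compared per length, as FPKM. In controls the order was *Mcl1* (48.9 ± 1.28), *Bax* (32.5 ± 3.38), *Bcl2l1* (17.3 ± 0.332), *Trp53*, *Mdm2*, *Ccng1* (9.73 ± 0.265), *Bbc3* (7.72 ± 0.437), *Bcl2* (3.78 ± 0.0806) and *Pmaip1* (2.16 ± 0.227). All neighbours in this order were separated without overlap except *Trp53* and *Mdm2*. In mutants *Trp53*, at 9.72 ± 0.689 FPKM, lay below *Mdm2* and *Ccng1* (11.9 ± 0.408) and overlapped *Bbc3* (9.88 ± 0.706). The summed FPKM of *Bcl2*, *Bcl2l1* and *Mcl1* was 2.08, 2.39 and 2.04 times that of *Bax* in controls and 2.10, 2.20 and 1.97 times in mutants, which overlap. The ratio of *Bcl2* to *Bax* alone was 0.108, 0.134 and 0.110 in controls and 0.136, 0.141 and 0.125 in mutants, which also overlap. Shared exon bases of *Bax* with *Gm45808* and of *Bcl2* with *D630008O14Rik* involve genes that held at most 1 count in any library.

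**Figure D3:**
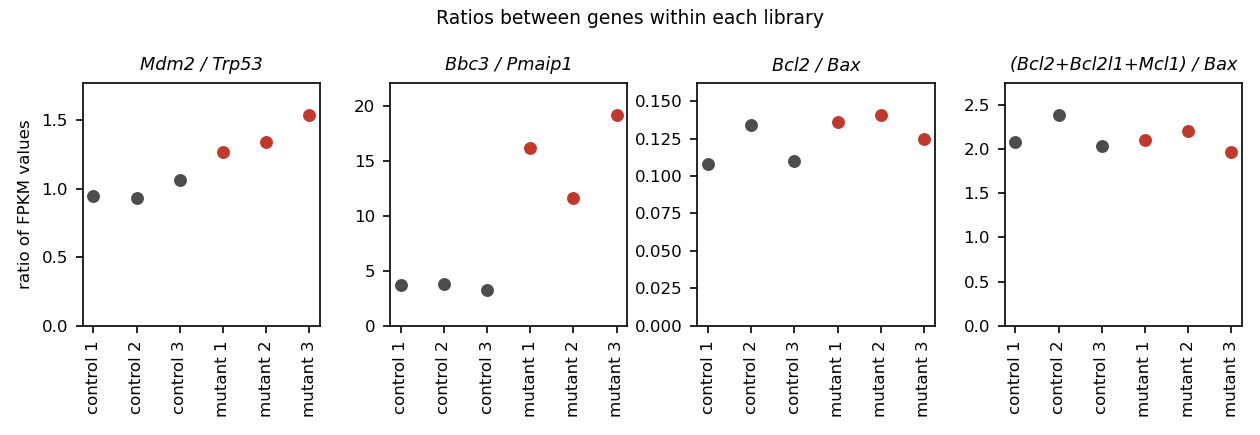
Ratios of FPKM values between genes (y axis, from 0, no unit) in each control (grey) and mutant (red) library. The ratios of *Mdm2* to *Trp53* and of *Bbc3* to *Pmaip1* are higher in all 3 mutants, while the 2 ratios to *Bax* overlap between the groups.

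Downstream of the mitochondria, 20 genes of caspases, the apoptosome and inhibitors of apoptosis (IAPs) were tested. Of these, 2 fell, 0 rose and 18 did not pass, where 7.24% of all tested genes fell and 6.55% rose. The list's median was -0.15. At an unadjusted p under 0.05 edgeR gave 4 lower and 2 higher in this list, and DESeq2 gave 2 and 0 at the adjusted p. *Birc5*, the gene for survivin, an IAP family protein of dividing cells that acts at the mitotic spindle, fell from 38.7 ± 1.76 to 22.9 ± 1.51 CPM (log2 fold change -0.76, adjusted p = 1.98e-04). *Casp2*, the caspase activated by Pidd1, fell from 61.8 ± 3.38 to 44.5 ± 2.14 CPM (log2 fold change -0.48, adjusted p = 0.00106), a call lost in 1 of 18 alternatives. *Apaf1* (-0.17, adjusted p = 0.195) and *Casp9* (0.08, adjusted p = 0.418), which form the apoptosome, and *Xiap* (-0.10, adjusted p = 0.548), the direct caspase inhibitor, overlapped between the groups on these log2 fold changes.

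Among 14 tested genes of the death receptor pathway, 1 fell, 1 rose and 12 did not pass, with a median of -0.18. For this list and the stress list below, the shares over all tested genes were 7.24% lower and 6.55% higher. *Ngfr*, the p75 neurotrophin receptor, which is also a marker of GNPs, fell from 101 ± 9.81 to 70.4 ± 1.64 CPM (log2 fold change -0.52, adjusted p = 7.92e-04), a call lost in 1 of 18 alternatives. *Tnfrsf21*, the gene for death receptor DR6, rose from 120 ± 3.80 to 145 ± 3.25 CPM (log2 fold change 0.27, adjusted p = 0.00270), and this call was lost in 4 of 18 alternatives, among them the fits without control 3, mutant 1 or mutant 3. *Fas* was below the filter and not tested, at 3, 5 and 3 counts in controls and 12, 9 and 7 counts in mutants. Among 13 genes of the integrated stress response and AP-1, 0 fell and 2 rose, with a median of 0.15, against 1 lower and 3 higher at an unadjusted p under 0.05 in edgeR and again 0 and 2 at the adjusted p in DESeq2. *Jun*, an AP-1 subunit that acts upstream of BH3-only genes in neurons, was at 67.4, 63.7 and 67.2 CPM in controls and at 112, 117 and 126 CPM in mutants. It rose by a log2 fold change of 0.84 (SE 0.0592, adjusted p = 1.68e-05). *Gadd45g*, a stress-inducible gene of the Gadd45 family, rose from 28.1 ± 1.43 to 41.6 ± 3.79 CPM (log2 fold change 0.57, adjusted p = 0.00149).

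Markers of several cell types moved with the group, where 7.24% of all tested genes fell and 6.55% rose. All 11 tested GNP markers fell, with a median of -1.09 and a summed level of 1660 to 1810 CPM in controls and 802 to 848 CPM in mutants. All 11 proliferation markers fell, from a sum of 1520 to 1680 to one of 857 to 964 CPM, with *Mki67* at -1.25. Of the granule neuron markers 9 of 11 fell, from 4440 to 4580 to 3000 to 3380 CPM, *Nhlh1* by 1.78 and *Neurod1* by 1.16 on the log2 scale. The part of these shifts in the falls of *Trp53*, *Pmaip1*, *Birc5*, *Psrc1* and *Ckap2* was not tested.

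Markers of other neural cell types rose, beside the same shares of all tested genes (7.24% lower and 6.55% higher). CPM is a share of a common total. More cells, more RNA per cell and a smaller share of granule lineage RNA therefore cannot be told apart in a rise. Of 10 genes each, 6 rose and 1 fell (*Lhx1*) among Purkinje cell markers (median 0.57), 7 rose and 1 fell (*Pdgfra*) among oligodendrocyte lineage markers (median 0.70), and 6 rose and 0 fell among markers of astrocytes and Bergmann glia (median 0.43). *Lhx1* and *Pdgfra* were named after their values were seen. Microglia, which engulf dying cells, had 3 of 15 markers higher and 0 lower: *Csf1r* (0.39, adjusted p = 0.00507), *C1qa* (0.59, adjusted p = 0.00693) and, named after its value was seen, *C1qc* (0.46), all log2 fold changes. The other 12 did not pass, among them *Cd68* (-0.0025, adjusted p = 0.991) and *Trem2* (0.09, adjusted p = 0.788), also named after their values were seen. At an unadjusted p under 0.05, 7 microglial markers were higher and 0 lower in edgeR. The summed microglial level was 168 to 172 CPM in controls and 212 to 226 CPM in mutants, and the list median was 0.37. Whether dying cells have a part in the microglial shift was not tested. Of 8 meninges markers 3 rose (*Col1a2*, *Col1a1* and, named after its value was seen, *Igf2*), with a median of 0.56. None of 10 endothelial and 5 erythrocyte markers passed in edgeR, at medians of -0.12 and 0.04, and at an unadjusted p under 0.05 the counts were 1 and 0. Of 8 choroid plexus markers 1 fell (*Otx2*, which GNPs also express) and 0 rose, but the list median was 0.91. At an unadjusted p under 0.05, 1 choroid plexus marker was lower and 3 were higher in edgeR. The list sums were 133 to 201 CPM in controls and 38.6 to 780 CPM in mutants. *Ttr*, named after its values were seen, was at 131, 101 and 67.7 CPM in controls and 181, 6.06 and 711 CPM in mutants. The part of these shifts in the rises of *Hrk* and *Jun* was not tested.

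**Figure D4:**
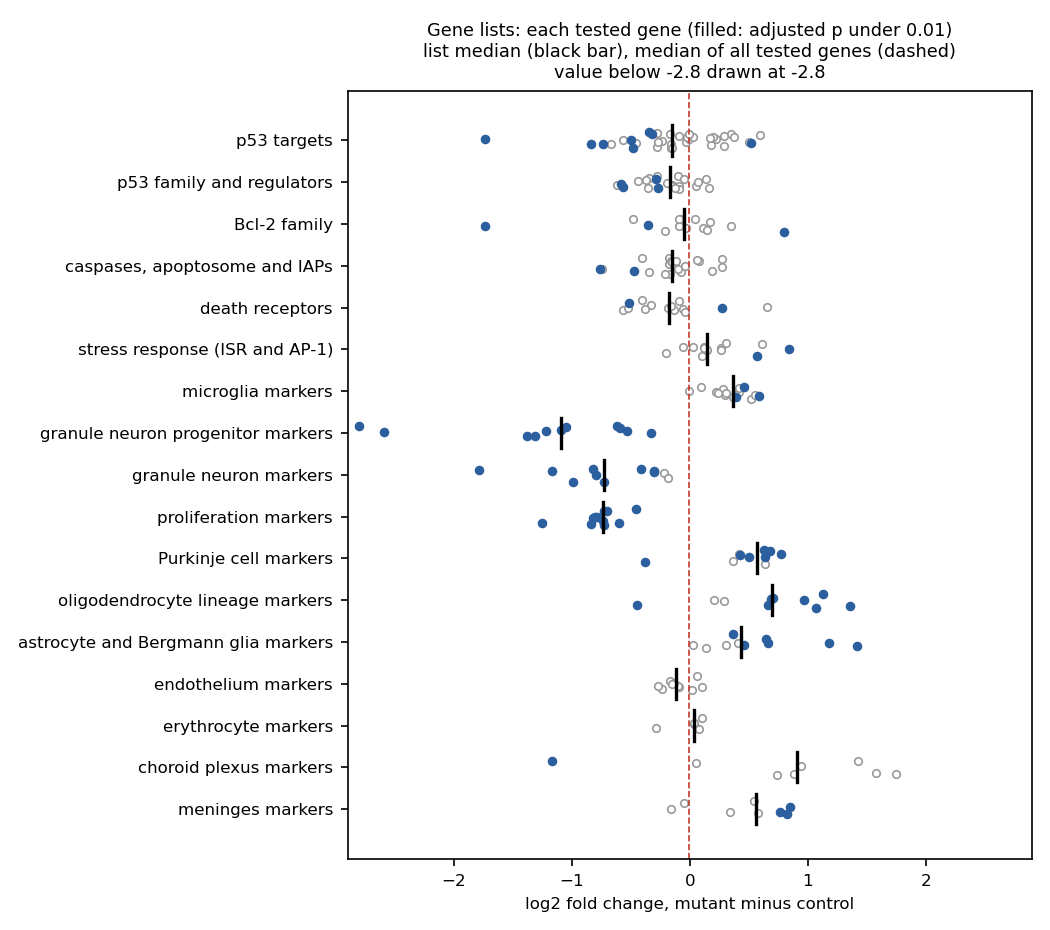
Log2 fold change, mutant minus control, of each tested gene (points, filled at an adjusted p under 0.01) in 17 gene lists, with the list median (black bar) and the median of all tested genes (dashed line at -0.01). *Atoh1*, at -6.40, is drawn at the left edge. The p53 target and apoptosis lists straddle 0, with medians from -0.18 to -0.05, while the GNP and proliferation lists lie entirely below it.

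By likeness of log2 CPM over the 6 libraries to *Pmaip1*, the gene of the 9 with the smallest p, the closest tested genes were *Cenpv* (Pearson r = 0.9974), *Chd7* (0.9973) and *Nol4* (0.9971). *Chd7*, a chromatin remodeller of granule neurons, fell from 589 ± 21.9 to 333 ± 22.3 CPM. The most opposed were *Slc32a1* (-0.9987), the vesicular transporter of GABA, *Dip2a* (-0.9979) and *Ntrk2* (-0.9976), the gene for the BDNF receptor TrkB. In all, 61 genes had an r above 0.99 and 70 one below -0.99. The 6 libraries form 2 groups, so these values are mostly set by the difference between the groups and are a description.

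Dying cells and cleaved caspases were not measured in these libraries, and RNA of cells lost before P1 is not in them. Whether cell death has a part in the lower granule lineage transcripts was therefore not tested.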

How the data were processed

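Libraries of P1 mouse cerebellum, 3 per group by the labels, were analysed from 2 deposited tables. For the counts, the authors filtered reads on adapters and quality, mapped them to mm10 with HISAT2 2.0.5 and summed them per gene with featureCounts 1.5.0-p3, as the methods and the submitters' processing notes state. From those counts and gene length the authors derived the deposited FPKM values. The annotation release and the strand setting are not given in the sources used here, so overlapping and antisense genes may share reads. The authors' own comparison used DESeq2.

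Counts were fitted with the quasi-likelihood functions of edgeR 4.0.16 (R 4.3.3) after filterByExpr and TMM scaling, common dispersion 0.0105, with adjusted p under 0.01 and, where stated, a log2 fold change beyond 0.5. Same-group libraries differed by more than sampling noise (chi-square per gene 3.48 to 9.23), so none was a copy of another. Fits were tested on simulated data. Alternatives were DESeq2 1.42.0, limma 3.58.1 on log2(FPKM + 1) and log2(FPKM + 0.1), other scalings and filters, a replicate block, sex terms, an adjusted p of 0.05 and each library left out. Intervals (95%) rest on the model.

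The 9 genes and 17 gene lists were chosen with earlier results of these data known. Named genes were the 9, *Tox3*, *Atoh1* and *Mki67*, up to 4 genes per direction with the smallest p of each pathway list, 10 fixed pathway genes (1 of them not reported here), up to 2 genes per cell type list, and the 3 tested genes most like and 3 most opposed to the member with the smallest p. *Trp53-ps* and *Wrap53* were added as neighbours that could share reads. Other exceptions are marked.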

Additional observations from a re-analysis of the deposited data

How the results depend on the processing

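With 3 libraries per group, the model across genes carries the p-values, and at 23 to 99 counts *Pmaip1* is the least precise of the 9 genes. *Trp53* and *Pmaip1* fell, with 2 of the 9 genes lower at both thresholds, under all alternatives. The median log2 fold change of all genes was -0.007, and -0.001, 0.011 and 0.030 with DESeq2 size factors, library size alone and upper-quartile scaling. The causes of the changes listed here were not tested, except that a threshold of 0.05 admits more genes by construction and that leaving out a library leaves fewer samples.

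Of the 9 genes, 1 (*Ccng1*) rose in place of 0 with upper-quartile scaling, with at least 10 counts in every library, with the Y-chromosome covariate and in limma on log2(FPKM + 1) and log2(FPKM + 0.1), at log2 fold changes of 0.324, 0.292, 0.286, 0.268 and 0.290. At an adjusted p of 0.05, 2 rose. *Bax* turned to 0.006 with upper-quartile scaling and ranged from -0.115 to 0.022 with one library left out, and *Bcl2l2* from -0.173 to 0.040.

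Over all genes, those lower at the adjusted p numbered 1268, and 1991 with no filter, 840 and 834 in limma on log2(FPKM + 1) and log2(FPKM + 0.1), 449 in limma with no filter, 2252 at 0.05 and 703 to 1359 with one library left out. With the fold threshold, 635 became 407 and 286 in limma with and without the filter and 492 to 778 with one library left out. Those higher numbered 1147, and 763, 763 and 355 in the limma fits, 2136 at 0.05 and 575 to 1181 with one library left out. With the fold threshold, 530 became 300 and 176 in limma, 838 at 0.05 and 349 to 569 with one library left out.

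Of p53 targets, 7 fell, and 3 in limma with no filter and 4 to 5 with one library left out. In place of 1, 3 rose with upper-quartile scaling and the Y-chromosome covariate, 2 with no filter, with at least 10 counts and in both filtered limma fits, 8 at 0.05 and 1 to 2 with one library left out. Of p53 regulators, 4 fell, and 10 with no filter, 7 with the Y-chromosome covariate, 8 at 0.05 and 2 to 4 with one library left out. Of the Bcl-2 family, 2 fell, and 1 with DESeq2 size factors, library size alone, upper-quartile scaling, at least 10 counts, the 3 limma fits and any library left out (1 to 1), while 2 rose at 0.05. Of caspases, apoptosome and IAPs, 1 fell in limma with no filter and 1 rose at 0.05. Of death receptors, 0 fell and 0 rose in limma with no filter, 2 fell at 0.05, and 0 to 1 rose with one library left out. Of stress genes, 1 fell at 0.05 and 0 to 1 with one library left out.

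The replicate numbers did not pair the samples: deviations of same-numbered libraries correlated at 0.243, 0.265 and -0.163. A control and a mutant alike in having or lacking Y-chromosome transcripts correlated at 0.229 to 0.268. Pairs that differed in this correlated at -0.416 to -0.118. With the replicate number as a block, 1642 genes were lower and 1353 higher at the adjusted p, 2 of the 9 genes fell and 0 rose, and the log2 fold changes of *Trp53* and *Pmaip1* were -0.586 and -1.736.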
